A study of Mus musculus with 6 samples.

Results

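The genes described here are 10 whose proteins place axonal Kv1 potassium channels or form the LGI1-ADAM22 complex, followed in primary mouse neurons after CRISPR activation of *Kcna1*. They were taken by gene symbol from the table of 50508 symbols, and 10 of 10 were listed: the secreted ligands *Lgi1*, *Lgi2* and *Lgi3*, the receptors *Adam11*, *Adam22* and *Adam23*, the adhesion proteins *Cntnap2* and *Cntn2*, and the scaffolds *Dlg2* and *Dlg4*. Both groups were primary neurons of newborn C57Bl/6J pups, transduced on the day after plating with a lentivirus in which the Ef1alpha promoter, which is not restricted to neurons, drives a nuclease-dead Cas9 fused to the activator VP160. Control cultures, Ctrl-dCas9A (3 libraries), carried sgLacZ, a guide against a bacterial gene, and Kcna1-dCas9A cultures (3 libraries) carried sg19, a guide to the *Kcna1* promoter, so that the control cells also expressed the activator and the groups differed in the guide. The labels name the tissue as hippocampus, while the culture methods of the study name cortex. The study says in general that its experiments were repeated independently, but neither source ties the 3 libraries of a group to separate preparations. The p-values therefore measure the spread between these libraries, which may be technical.

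Kv1 channels sit along the axon, at the initial segment, beside the nodes of Ranvier and at presynaptic terminals, where they limit firing and transmitter release. CASPR2 (*Cntnap2*) and TAG-1 (*Cntn2*) form the adhesion complex that holds them next to the nodes of myelinated axons. LGI1 is secreted and binds the catalytically inactive metalloproteases ADAM22 and ADAM23, whose family also includes ADAM11, and the scaffolds PSD-93 (*Dlg2*) and PSD-95 (*Dlg4*) bind the C-terminal tails of both Kv1 channels and ADAM22. Mutations of *LGI1* cause an inherited lateral temporal lobe epilepsy.

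The question asked of these genes was whether their transcripts differed between the groups when *Kcna1* itself was raised. With limma over the 19504 genes above 0 in at least 1 library, 0 of the 10 members had a Benjamini-Hochberg adjusted p under 0.05, against 1.16% of all genes tested. At an unadjusted p under 0.05 there were 4 of 10, against 23.2% of all genes. These 4 were also the members whose groups did not overlap: *Adam11* and *Cntn2* were listed higher in every Kcna1-dCas9A library than in any Ctrl-dCas9A library, and *Adam22* and *Dlg4* lower. Across the whole test the groups were separate for 22.2% of genes (8.98% higher and 13.3% lower in Kcna1-dCas9A). Of the 8050 genes whose mean value was 10 or more, where 9 of the 10 members lie, this share was 39.8%, close to the 4 of 9 members. Separate groups were therefore about as frequent among the members as among genes of like level. For 3 libraries against 3, the smallest p of a two-sided exact permutation test is 0.1, which such a separation gives.

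The values are whole numbers that sum to between 999047 and 999717 per library. They were taken as per-million values rounded by the authors, so that sequencing depth is unknown and no counting error can be given. Each library listed 14788 to 15417 genes above 0. Fold changes are differences of log2(value + 1), Kcna1-dCas9A minus Ctrl-dCas9A, a scale on which genes of low value show too small a fold. The libraries hold 3′ ends of transcripts, 1 tag for each transcript end, and values were not divided by transcript length here. *Kcna1*, the target of the guide, had a value of 16 in each of the libraries with sgLacZ and of 68, 47 and 65 with sg19. It rose by 1.83 on the log2 scale (standard error 0.16, adjusted p = 0.034), and this call was lost when any library other than Ctrl-dCas9A replicate 3 was left out (adjusted p = 0.11 to 0.14), although the size stayed between 1.73 and 1.99.

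The guide sg19 defines the groups, and its sequence is shown with the closest sites before annotated transcript starts of 9 members. In the reference genome NCBIM37 (mm9), sg19 matched chromosome 6 from 126595930 to 126595949 on the plus strand without a mismatch, 111 bp upstream of the *Kcna1* start and next to the PAM TGG. Each further line gives a site with the fewest mismatches next to an NGG PAM, on either strand, in the 500 bp before any start of that gene's transcripts in GENCODE vM1. Capitals mark the bases that differ from sg19, written 5′ to 3′.
sg19: agtcaatgatcacatcctcc
Adam11: GgtGaGtgaCcCcaGccGcc
Adam22: CCtcCatgaGTGAGCcctcc
Adam23: GgtACTGCaCcCcaCcctcc
Lgi1: TTtAaaAgaAAaAatccAGc
Lgi2: agCcGTGgCtcaGaCccCcT
Dlg2: TTtcTCtgatcCTCtcAtGc
Cntn2: CCCcGCCgTCcCcaCcctcc
Cntnap2: CCtGGGAgCtAacaGcctAc
Lgi3: aTtcTCtgCAcacaCAACTc

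The *Adam11* site (chr11:102622998-102623017, plus strand) had 7 mismatches over the 20 bases, and 1.38% of the 86877 windows of this length in the annotation held a site with 7 or fewer. The sites of *Adam22* (chr5:8116949-8116968, minus strand), *Adam23* (chr1:63492383-63492402, minus), *Lgi1* (chr19:38339624-38339643, plus), *Lgi2* (chr5:52957720-52957739, plus) and *Dlg2* (chr7:98691499-98691518, minus) had 9 mismatches, which 22.6% reached. Those of *Cntn2* (chr1:134439577-134439596, plus), *Cntnap2* (chr6:45009766-45009785, plus) and *Lgi3* (chr14:70930471-70930490, plus) had 10, which 58.4% reached. A gene with several annotated starts was searched in several windows (8 for *Adam11*, 15 for *Dlg2* and 1 for *Lgi3*), so that its best site is not comparable with a single window. Of the *Adam22* starts, 7 were searched, and of the *Cntn2* starts 2. Where windows tied, the site first in coordinate order is shown, and ties within a window were not listed. For *Adam22* the site shown lies before an internal start (8116605), and another site with 9 mismatches (chr5:8368506-8368525, plus strand) lies before 4 starts that include the first (8368160). *Dlg2* also had another with 9 (chr7:98820876-98820895, minus strand). The sites shown for *Adam11*, *Lgi1* and *Dlg2* likewise lie inside the gene, before internal starts (102623403, 38339900 and 98691624). Before the first starts of these genes (102622753, 38339272 and 97650473) the best sites had 10, 10 and 11 mismatches. These matches are descriptions of letters in the reference, and binding of dCas9 was not measured.

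**Figure D1:**
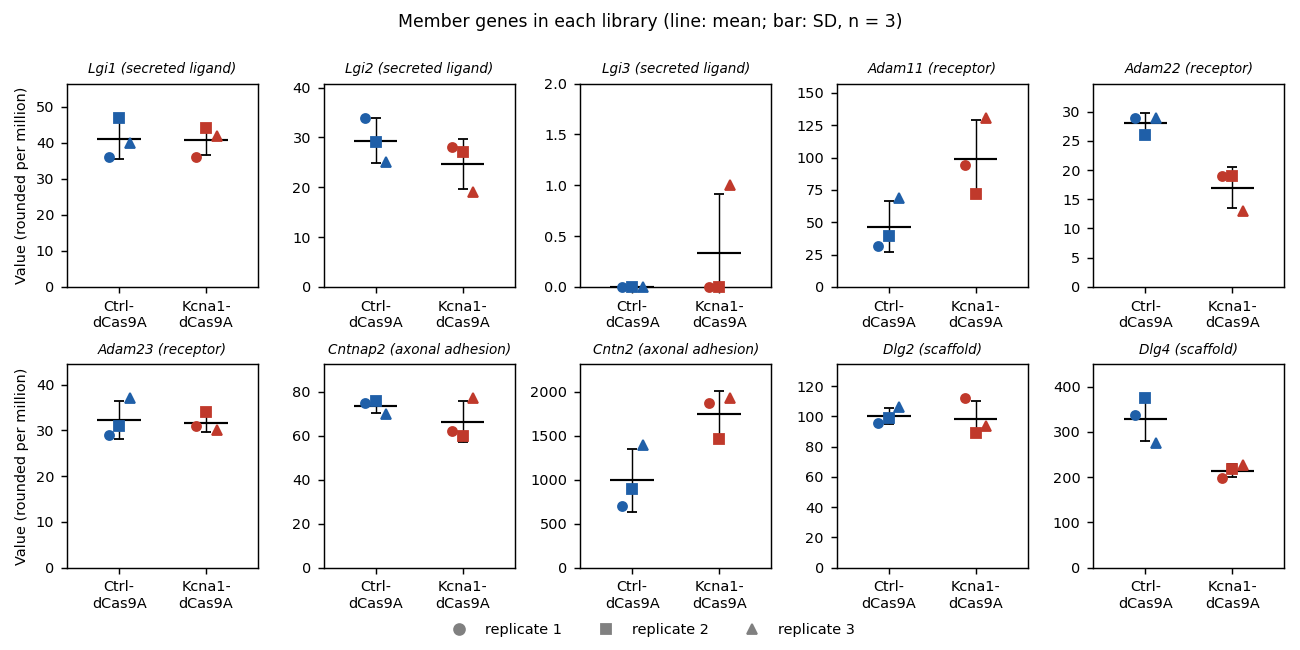
Rounded per-million values (linear axes from 0) of each member gene in the 3 Ctrl-dCas9A libraries (blue) and the 3 Kcna1-dCas9A libraries (red). Symbols mark the replicate number, lines the mean and bars the SD (n = 3). The groups separate for *Adam11*, *Cntn2*, *Adam22* and *Dlg4* and overlap for the other members.

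The secreted ligands showed no difference beyond the spread between libraries. *Lgi1*, on chromosome 19 from 38339272 to 38383429, was listed at 36, 47 and 40 with sgLacZ and at 36, 44 and 42 with sg19. The lowest value of each group was 36, and the means were 41 ± 5.57 and 40.7 ± 4.16 (SD, n = 3). The difference was -0.01 on the log2 scale (standard error 0.14, adjusted p = 1), with a 95% interval from -0.35 to 0.33. *Lgi2*, on chromosome 5 from 52924758 to 52957542, encodes a relative of LGI1 that binds the same receptor family. The libraries read 34, 29 and 25 with sgLacZ and 28, 27 and 19 with sg19, ranges that overlap. With sg19 it differed by -0.25 on the log2 scale (standard error 0.19, adjusted p = 0.51), with an interval from -0.71 to 0.21, so that a difference within these bounds cannot be told from 0 here. Its value was -0.08 without Kcna1-dCas9A replicate 3 and -0.36 without Ctrl-dCas9A replicate 3. *Lgi3*, on chromosome 14 from 70930628 to 70938130, was listed at 1 in Kcna1-dCas9A replicate 3 and at 0 in the other 5 libraries, and no fold change is given for it. It entered the test only through that value of 1. Together the ligands summed to between 65 and 76 in Ctrl-dCas9A and to between 62 and 71 in Kcna1-dCas9A.

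The receptor transcripts did not share a direction, and 0 of 3 passed the adjusted threshold. *Adam11*, on chromosome 11 from 102622753 to 102641576, encodes the family member that places Kv1 channels at the terminals of cerebellar basket cells. It was listed at 32, 39 and 69 with sgLacZ and at 94, 72 and 131 with sg19. All Kcna1-dCas9A libraries were higher, but the highest control library (69, replicate 3) was close to the lowest Kcna1-dCas9A library (72, replicate 2). The means were 46.7 ± 19.7 and 99 ± 29.8 (SD, n = 3), a ratio of 2.12. Kcna1-dCas9A minus Ctrl-dCas9A came to 1.10 on the log2 scale (standard error 0.32, interval 0.35 to 1.86), and its p of 0.011 from limma became 0.097 after adjustment over all genes.

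*Adam22*, on chromosome 5 from 8072352 to 8368160, encodes the receptor that carries LGI1 to PSD-95. Values of 29, 26 and 29 with sgLacZ and 19, 19 and 13 with sg19 were listed, with no overlap and with little spread among the controls. The means were 28 ± 1.73 and 17 ± 3.46 (SD, n = 3), a ratio of 0.607. On the log2 scale the difference was -0.71 (standard error 0.18, interval -1.13 to -0.28, adjusted p = 0.071).

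*Adam23*, on chromosome 1 from 63492465 to 63643089, encodes the receptor found mainly on the presynaptic side. Its values were 29, 31 and 37 with sgLacZ and 31, 34 and 30 with sg19, and the groups overlapped. The difference was -0.02 on the log2 scale (standard error 0.14, adjusted p = 0.94), with an interval from -0.34 to 0.30.

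A ratio of 2 genes within a library does not depend on how the library was scaled. The ratio of *Adam11* to *Adam22* lay between 1.10 and 2.38 in Ctrl-dCas9A and between 3.79 and 10.1 in Kcna1-dCas9A. The ratio of *Adam22* to *Adam23* lay between 0.784 and 1 in the controls and between 0.433 and 0.613 in Kcna1-dCas9A, so that both ratios separated the groups. As a share of the summed receptor value, *Adam11* made up between 35.6% and 51.1% in Ctrl-dCas9A and between 57.6% and 75.3% in Kcna1-dCas9A. The share of *Adam22* lay between 21.5% and 32.2% in the controls and between 7.47% and 15.2% in Kcna1-dCas9A. That of *Adam23*, whose own values overlapped, also fell, from between 27.4% and 32.3% to between 17.2% and 27.2%. A share falls when another member of the sum rises, so these shares are not independent of that of *Adam11*. The summed receptor value itself was 90, 96 and 135 in Ctrl-dCas9A and 144, 125 and 174 in Kcna1-dCas9A, with overlap. The ratios were formed between members of the same role after their values were known, and they are given as descriptions without a test.

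**Figure D2:**
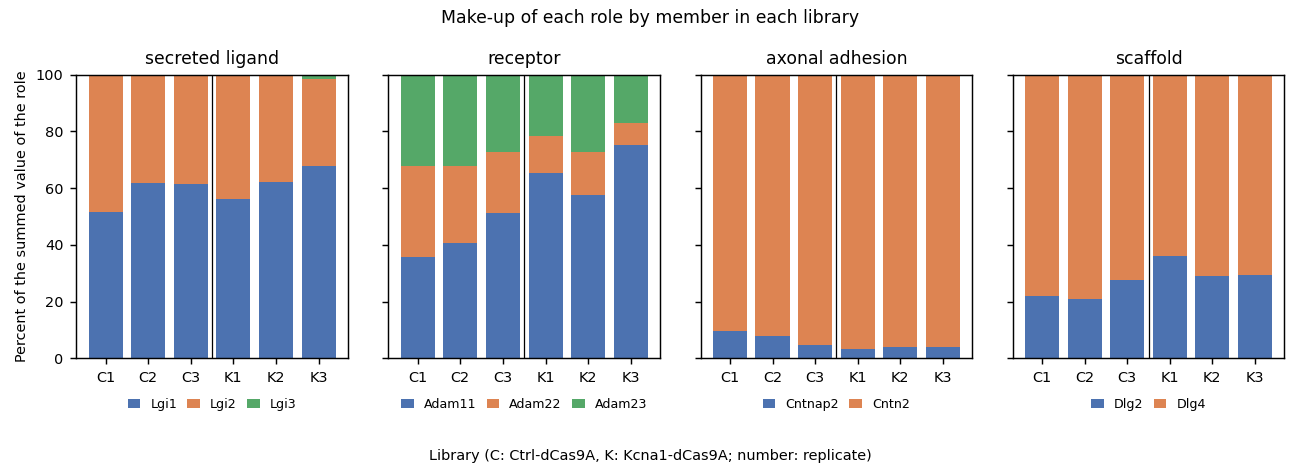
Stacked bars give each member's percent of the summed value of its role (ligands, receptors, adhesion proteins, scaffolds) in the 3 Ctrl-dCas9A libraries (C1 to C3) and the 3 Kcna1-dCas9A libraries (K1 to K3). *Adam11* takes 57.6% to 75.3% of the receptor value in Kcna1-dCas9A against 35.6% to 51.1% in Ctrl-dCas9A, while the shares of *Lgi1* overlap.

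Of the adhesion pair, *Cntn2* was listed higher with sg19 and *Cntnap2* overlapped between the groups, and 0 of 2 passed the adjusted threshold. *Cntn2*, on chromosome 1 from 134406002 to 134439517, encodes TAG-1, a GPI-anchored contactin of axons. It was the most abundant member on the per-million scale, listed at 698, 895 and 1392 with sgLacZ and at 1871, 1459 and 1924 with sg19. As for *Adam11*, Ctrl-dCas9A replicate 3 (1392) was close to Kcna1-dCas9A replicate 2 (1459). The means were 995 ± 358 and 1751 ± 255 (SD, n = 3), a ratio of 1.76, and the difference was 0.86 on the log2 scale (standard error 0.25, interval 0.27 to 1.46, adjusted p = 0.096).

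*Cntnap2*, on chromosome 6 from 45010060 to 47251368, encodes CASPR2, the neurexin-like partner of TAG-1. The libraries read 75, 76 and 70 with sgLacZ and 62, 60 and 77 with sg19. Kcna1-dCas9A replicate 3 lay above all controls and the other 2 below them. Kcna1-dCas9A minus Ctrl-dCas9A came to -0.16 on the log2 scale (standard error 0.12, adjusted p = 0.51), with an interval from -0.45 to 0.14. With a library left out it lay between -0.27 and -0.09. The ratio of *Cntn2* to *Cntnap2* lay between 9.31 and 19.9 with sgLacZ and between 24.3 and 30.2 with sg19, without overlap.

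Of the scaffolds, *Dlg4*, on chromosome 11 from 69830587 to 69859034, encodes PSD-95, the main scaffold of excitatory synapses. It was listed at 338, 374 and 276 with sgLacZ and 198, 217 and 227 with sg19. All Kcna1-dCas9A libraries were lower, and among the controls replicate 3 was the closest to them. The means were 329 ± 49.6 and 214 ± 14.7 (SD, n = 3), a ratio of 0.650. On the log2 scale the difference was -0.61 (standard error 0.13, interval -0.92 to -0.31, adjusted p = 0.056), the smallest adjusted p of the members.

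*Dlg2*, on chromosome 7 from 97650473 to 99595513, encodes PSD-93, which is found with Kv1 channels at the axon initial segment. Values of 96, 99 and 106 with sgLacZ and 112, 89 and 94 with sg19 were listed, and the control range lay inside that of Kcna1-dCas9A. The difference was -0.03 on the log2 scale (standard error 0.11, adjusted p = 0.87), with an interval from -0.31 to 0.24. The ratio of *Dlg4* to *Dlg2* was between 2.60 and 3.78 in Ctrl-dCas9A and between 1.77 and 2.44 in Kcna1-dCas9A.

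**Figure D3:**
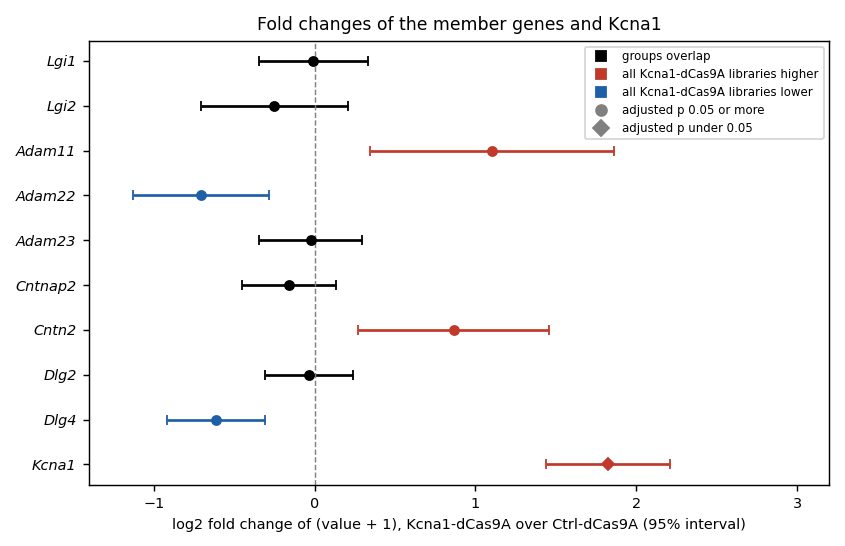
Log2 fold changes of log2(value + 1) with 95% intervals from limma for 9 members and *Kcna1*; *Lgi3*, listed at 0 in all controls, is left out. Red and blue mark genes whose Kcna1-dCas9A libraries were all higher or all lower, and the diamond an adjusted p under 0.05. *Kcna1* (1.83) passed, and the members *Adam11* (1.10), *Cntn2* (0.86), *Dlg4* (-0.61) and *Adam22* (-0.71) had intervals away from 0 before adjustment.

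In order of mean per-million value in Ctrl-dCas9A, *Cntn2* was followed by *Dlg4*, *Dlg2* (100.3 ± 5.13, SD, n = 3), *Cntnap2* (73.7 ± 3.21), *Adam11*, *Lgi1*, *Adam23* (32.3 ± 4.16), *Lgi2* (29.3 ± 4.51), *Adam22* and *Lgi3*. From *Adam11* to *Adam22*, each neighbour overlapped the next in its range over the 3 control libraries, and their order is not resolved. In Kcna1-dCas9A, *Adam11* overlapped *Dlg2* and *Cntnap2* in its range, and its place relative to them is not resolved there. *Dlg2* lay above *Cntnap2* without overlap. The order is that of 3′ end values. In GENCODE vM1, 0 other genes overlapped the last 1000 bp before the outermost annotated end of any of the 10 members. Other transcript ends were not checked, and the positions of the reads are not known here.

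The calls on *Adam11*, *Cntn2*, *Dlg4* and *Adam22* depended on the processing, whereas their directions did not under any alternative tried. After rescaling by median-of-ratios factors, *Adam11*, *Cntn2* and *Dlg4* passed (3 of 10 members), with 8.81% of all genes. Among all genes called, 68 were higher and 158 lower as reported, and 962 higher and 757 lower after this rescaling. With Gm42418 left out, a gene holding 15.3% to 20.2% of each library's values, all 4 passed, with 9.07% of all genes, and among genes with a mean of 10 or more all 4 of 9 members passed, with 28.4% of genes. Without Ctrl-dCas9A replicate 3, *Adam11* (1.42), *Cntn2* (1.14) and *Dlg4* (-0.73) passed, with 14.2% of genes, and with any other library left out 0 members and 0 of all genes passed. In the settings where members passed, more than the 226 genes as reported passed over all genes.

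**Figure D4:**
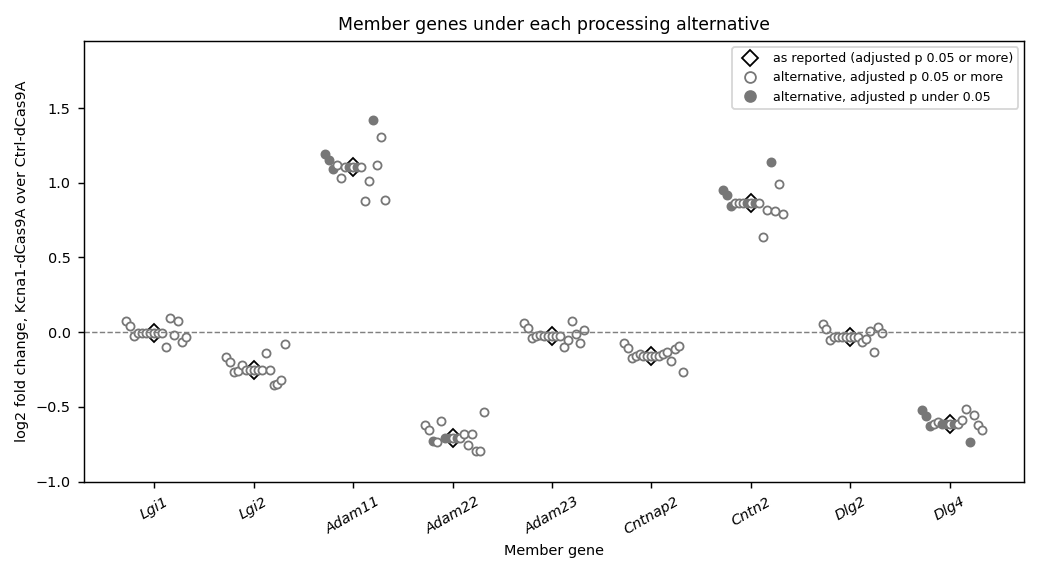
Log2 fold changes of 9 members as reported (diamonds) and under 16 alternatives (circles), filled where the adjusted p from limma was under 0.05. *Adam11* stays between 0.88 and 1.42, *Cntn2* between 0.64 and 1.14, *Dlg4* between -0.73 and -0.51 and *Adam22* between -0.79 and -0.53, while *Lgi1*, *Adam23* and *Dlg2* lie on both sides of 0.

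Genes related to the members were taken from 5 lists of 83 symbols, of which 79 were above 0 in some library. Of these, 1 gene, *Kcna1*, had an adjusted p under 0.05, and 31 had an unadjusted p under 0.05 (15 higher, 16 lower). At a mean of 10 or more 28 of 61 had such a p, against 3197 of 8050 genes. Among the 61 related genes with a mean value of 10 or more, 14 were higher and 16 lower without overlap, 49.2% against 39.8% of all genes at that level. Their median log2 fold change was -0.07, against -0.06 over all genes at that level and -0.03 over the 9 members.

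Of 8 Kv1 channel subunit genes tested, *Kcna1* was the 1 past the threshold, and 3 were higher without overlap, *Kcna1* among them. At a mean of 10 or more 2 of 4 were higher, again with *Kcna1*, against 1280 of 8050 genes. *Kcna6* was listed at 68, 88 and 148 against 150, 149 and 159, with Ctrl-dCas9A replicate 3 again near the Kcna1-dCas9A libraries, and *Kcna2*, the usual axonal partner of Kv1.1, at 19, 17 and 19 against 25, 11 and 18, with overlap.

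The list of axon initial segment and nodal genes includes scaffolds that tether channels to spectrin and actin. Of this list, 0 of 13 genes were past the threshold. For 8 the groups did not overlap (6 higher, 2 lower, 61.5% of the list), and the median log2 fold change was 0.29. Over all genes with a mean of 10 or more the share was 39.8% and the median -0.06. *Map6*, a microtubule-stabilising protein, had the highest log2 fold change of this list (0.72, standard error 0.19, adjusted p = 0.078). Its values were 269, 333 and 468 with sgLacZ and 579, 549 and 591 with sg19. The lowest of genes with a mean of at least 10 was *Epb41l2*, which links membrane proteins to the spectrin skeleton (-0.49, standard error 0.15, adjusted p = 0.11). *Ank3*, which encodes ankyrin-G, the organiser of the initial segment, was listed at 396, 444 and 506 with sgLacZ and at 644, 511 and 606 with sg19 (log2 fold change 0.39, adjusted p = 0.13). It was named after its values were seen.

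Partners of PSD-95 had 0 of 21 genes past the threshold, with 2 higher and 6 lower without overlap and a median of -0.09. At a mean of 10 or more these were 44.4% of the list, near the 39.8% of all genes at that level. *Shank2*, a scaffold of the postsynaptic density, was listed at 16, 18 and 10 with sgLacZ and at 7, 6 and 8 with sg19 (-0.94, standard error 0.25, adjusted p = 0.079). The separate groups of this list thus lay on both sides of 0.

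Among trafficking, palmitoylation and 14-3-3 genes, 0 of 20 passed, with 3 higher and 6 lower without overlap (45% of the list, near the 39.8% of all genes with a mean of 10 or more) and a median of -0.14. The highest was *Abhd17c*, a depalmitoylating enzyme of the family that acts on PSD-95, listed at 229, 206 and 253 with sgLacZ and at 376, 321 and 422 with sg19 (0.70, standard error 0.13, adjusted p = 0.053). The lowest was *Zdhhc8*, a palmitoyl transferase, listed at 26, 15 and 14 against 9, 5 and 6 (-1.32, standard error 0.30, adjusted p = 0.056). Of the other LGI, ADAM, contactin and Caspr family genes, 0 of 17 passed, with 2 higher and 3 lower without overlap. Of the 6 with a mean of 10 or more, 1 was higher and 2 lower without overlap (50%, against 39.8% of all genes at that level), with a median of -0.40, against -0.06. *Adam15* was listed at 78, 76 and 113 with sgLacZ and at 160, 143 and 261 with sg19 (1.04, standard error 0.26, adjusted p = 0.066). *Adam10*, an active sheddase, was listed at 54, 44 and 38 against 29, 26 and 23 (-0.77, standard error 0.16, adjusted p = 0.056).

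**Figure D5:**
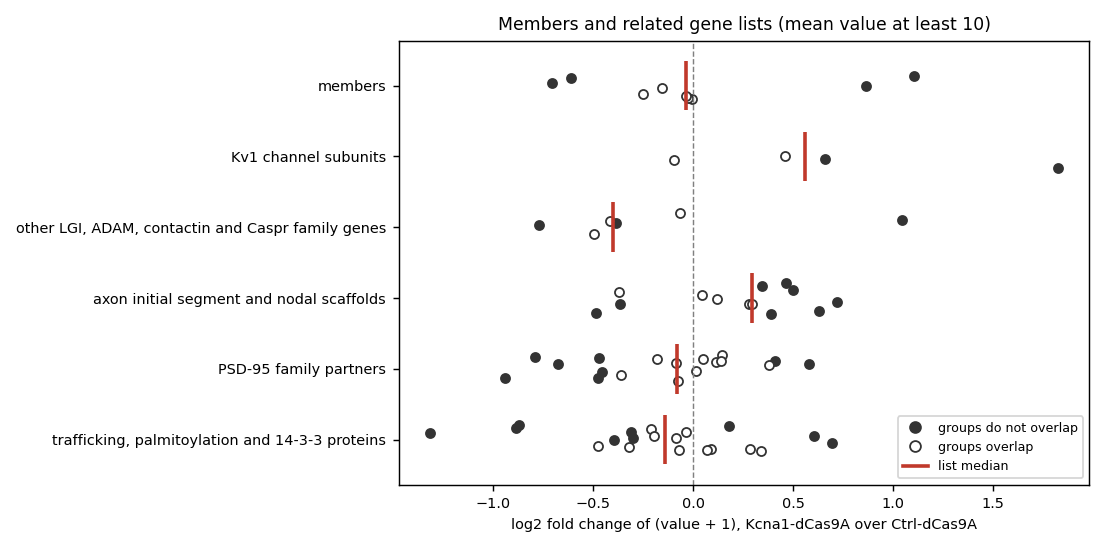
Each point is a gene with a mean value of at least 10, plotted by its log2 fold change (Kcna1-dCas9A over Ctrl-dCas9A) for the members and 5 lists of related genes; filled points have groups that do not overlap and red lines are list medians. The members' median is -0.03, and the highest point is *Kcna1* at 1.83.

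Some markers of other cell types passed the threshold, while 0 of the 10 members did. Over all genes tested 1.16% passed it and 22.2% had groups without overlap, a share of 39.8% at a mean of 10 or more. In these bulk libraries, fewer cells of a type and less RNA per cell cannot be told apart. Astrocyte markers summed to between 925 and 1037 in Ctrl-dCas9A and to between 672 and 698 in Kcna1-dCas9A. Of the 9, 3 were past the threshold, all lower (*Aqp4*, *Aldoc* and *Sox9*). In all, 6 were lower without overlap, while *Gfap* (63, 45 and 57 against 46, 48 and 70), *S100b* and *Aldh1l1* overlapped. Oligodendrocyte lineage markers summed to between 66 and 98 and to between 40 and 44, with *Olig2* lower past the threshold and the myelin gene *Mog* at 0 in all libraries. *Mbp*, another myelin gene, was higher without overlap at low values (3, 3 and 2 against 7, 4 and 7). Microglia markers summed to between 23 and 27 and to between 55 and 73, with *C1qa* higher past the threshold and *P2ry12* at 0 in all libraries. Of the 7 above 0 in some library, 4 were higher without overlap. *Csf1r*, *C1qc* (2, 2 and 1 against 1, 2 and 1) and *Tyrobp* overlapped, at low values. Pan-neuronal markers summed to between 5923 and 6761 in Ctrl-dCas9A and to between 6910 and 8273 in Kcna1-dCas9A, with 0 of 6 past the threshold. *Tubb3* carried the higher sum (1862, 1752 and 2605 against 3855, 3221 and 4591), whereas *Map2* and *Snap25* were lower without overlap and the median log2 fold change of the list was -0.05. Excitatory neuron markers summed to between 700 and 737 and to between 651 and 666, with 0 of 6 past the threshold. *Neurod6* carried the lower sum (512, 484 and 471 against 388, 361 and 362), whereas *Slc17a7* and *Camk2a* were higher without overlap. Inhibitory neuron markers overlapped in their sums (259 to 279 against 253 to 304), with 0 of 6 past the threshold, *Gad1* and *Slc32a1* lower and *Npy* higher without overlap. The pan-neuronal, excitatory and inhibitory lists each had 50% of their markers without overlap, near the 39.8% of all genes with a mean of 10 or more. Endothelial and mural markers summed to between 10 and 14 and to between 6 and 8, with 0 of 5 past it. Markers of hippocampal or cortical neurons summed to between 259 and 297 and to between 231 and 248, with 0 of 6. In this list *Prox1*, taken as a dentate gyrus marker, read 146, 160 and 107 against 89, 101 and 75. *Fezf2*, taken as a cortical marker, read 43, 46 and 56 against 61, 62 and 71. These values do not show which region the cells came from. The 5 marker calls were lost, like all others, when any library but Ctrl-dCas9A replicate 3 was left out. The part of these differences in the values of the members was not tested.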

How the data were processed

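The authors made QuantSeq 3′ libraries from polyA RNA and deposited one table per library, a score per gene symbol in whole numbers without a header. The scaling is not given in the sources used here. The near-equal totals and a variance below the mean between replicates (0.719 and 0.507 times the mean on average for genes with a mean from 4 to 8) led to treating the score as a rounded per-million value. The methods of the study name NCBI37/mm9 and Bowtie2 for these libraries, while the submitters' processing notes name mm10, STAR 2.7, featureCounts and DESeq2. The files hold no coordinates, and positions given here are those of NCBIM37 with GENCODE vM1, which holds 28811 of the 50508 symbols.

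As the values were not counts, log2(value + 1) was fitted with limma 3.58.1 (R 4.3.3, eBayes with an intensity trend), with the group as the only factor, on genes above 0 in at least 1 library, and p was adjusted by Benjamini-Hochberg over all of them at a threshold of 0.05. DESeq2 as an alternative was not run because it needs counts. Members and lists were chosen with earlier results of these data known. Named genes were the members, *Kcna1*, genes of the lists past the threshold, the highest and lowest of each related list with a mean of at least 10, and the genes most like *Lgi1*. One gene that this rule names and one upstream site are not reported here. *Kcna6*, *Ank3* and the markers *Prox1*, *Fezf2*, *Mog*, *Mbp*, *P2ry12*, *Tubb3*, *Map2*, *Snap25*, *Neurod6*, *Slc17a7*, *Camk2a*, *Gad1*, *Slc32a1* and *Npy* were named after their values were seen. The same holds for *Gfap*, *S100b*, *Aldh1l1*, *Csf1r*, *C1qc* and *Tyrobp*. sg19 was read from the study's primer list and searched with Python 3.11.15. Alternatives were other scalings, pseudocounts, filters and variance models, the replicate block and each library left out.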

Additional observations from a re-analysis of the deposited data

How the results depend on the processing

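The number of reads is unknown, and low values are coarse after rounding. The 4 members whose groups did not overlap kept their direction under all 16 alternatives, but not their side of the threshold, and the cause was not tested. The number of members past it, 0 as reported, was 3 with median-of-ratios and with upper-quartile factors, 4 without Gm42418, 2 with a mean value of at least 1, 4 with a mean value of at least 10, 4 with a robust variance, 0 with the other pseudocounts, without the intensity trend and with the replicate block, and 0 to 3 with a library left out. For related genes it was 1 as reported and 16, 15, 17, 16, 25 and 25 in the same settings, 5 and 4 with a pseudocount of 0.1 and 5, 0 with the replicate block and 0 to 20 with a library left out. For all genes it was 226 as reported, then 1719, 1691, 1768, 1543, 2289 and 2884, 627 and 475, 0 and 0 to 2711. Ctrl-dCas9A replicate 3 gave the upper end of each range, and leaving out any other library gave 0. *Kcna1* kept a log2 fold change of 1.83 with the replicate block (adjusted p = 0.11 from limma) and 1.73 to 1.99 with a library left out (adjusted p = 0.019 to 0.14). The log2 fold change changed sign for *Lgi1* (0.0780 and 0.0444), *Adam23* (0.0618 and 0.0284) and *Dlg2* (0.0529 and 0.0188) under the median-of-ratios and upper-quartile factors. With a library left out it ranged from -0.0954 to 0.0924, -0.0961 to 0.0744 and -0.131 to 0.0333, and for *Kcna2* from -0.355 to 0.203. Without any filter on low values, 31004 of 50508 genes are at 0 throughout, and limma could not estimate the variance reliably, so that no values are given. Same-numbered libraries deviated together with correlations of 0.014, 0.11 and 0.15 over 8050 genes, the last being the highest of any pair. Libraries of different number lay between -0.16 and 0.099, and Ctrl-dCas9A replicate 1 correlated better with Kcna1-dCas9A replicate 2 (0.099) than with its own number. These correlations do not settle whether the numbers are pairs, and the main fit did not take them as such.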

Other observations

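Over the 6 libraries, the genes whose log2 values followed *Lgi1* most closely among 8049 others with a mean value of at least 10 were *Pqlc1* (Pearson 0.98), *Gadd45g* (0.97) and *Faf1* (0.96). *Pqlc1* was listed at 27, 38 and 33 with sgLacZ and at 27, 36 and 33 with sg19. These are descriptions over 6 points that share the scaling of their library.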
